A study of Homo sapiens with 26 samples.

Results

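The genes described here are 3 forkhead transcription factors of the FOXO class (FOXO1, FOXO3 and FOXO4), the transcriptional repressor BCL6, and 6 genes known as targets of FOXO factors (CITED2, PIK3IP1, IRS2, INSR, CCNG2 and SESN3). They were chosen by name as 10 of the 19704 gene symbols in the table of expression values that the authors deposited, and each was on 1 row of it. U2OS cells, an established human osteosarcoma line, here with a luciferase reporter of the clock gene ARNTL (Arntl::dLUC), were kept in medium of pH 6.3 or of pH 7.4. Polyadenylated RNA was sequenced from 13 dishes per medium, 1 dish every 4 h from 4 to 52 h after the change of medium. Both media were DMEM with 5% FBS, 25 mM PIPES and 25 mM HEPES, contained 0.1 µM dexamethasone to set the clocks of the cells to a common phase, and were sealed under atmospheric CO2. A first set of plates, treated a day earlier, gave the 28 to 52 h samples of both media, and a set treated the next day gave those of 4 to 24 h. Both groups are 1 cell line, and no time point had a replicate, so every SD below measures the spread over time points. SEs and p-values rest on scatter over time points too, for trends and rhythms on that around the fitted curve. The time points were taken as independent, and whether they are was not tested.

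FOXO proteins sit at the end of the insulin signalling pathway: the insulin receptor acts through its substrates and phosphoinositide 3-kinase on the kinase AKT, which phosphorylates FOXO proteins and keeps them out of the nucleus. In the nucleus they raise transcription of genes for cell cycle arrest, stress resistance and, as feedback, insulin signalling itself. BCL6, best known as the master repressor of germinal centre B cells, is itself activated by FOXO factors in other cell types. All measurements here are of RNA, and the location and phosphorylation of the proteins were not measured.

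Values are FPKM (fragments counted on a transcript, divided by its length and by the library's mapped fragments), a level per length that can be compared between genes. Differences are pH 6.3 minus pH 7.4 on the scale of log2(FPKM + 1) and are too small for genes of low level, because of the added 1. A gene is called where the adjusted p-value over the 11849 genes that averaged 1 FPKM or more (limma, Benjamini-Hochberg) is below 0.05. In bulk RNA, fewer cells with a transcript and less of it per cell cannot be told apart. Depth, estimated from the steps between low values, was 19.54 to 35.75 M fragments (M for mega) in 24 libraries, 11.07 M at pH 6.3, 8 h and 9.7 M at pH 7.4, 12 h. Within a library, the correlation across genes between the deviation from the mean and the GC content of the transcript was largest at pH 6.3, 20 h (0.63) and at pH 7.4, 28 h (0.75), 44 h (-0.67) and 48 h (-0.72). Genes are not independent replicates, so this is a description. The mesenchymal genes RUNX2, SPARC and VIM had mean levels of 24.8, 978 and 649 FPKM in acid medium, against 24.0, 1021.4 and 602 in neutral medium. Of the 6 mesenchymal markers listed, 5 were tested and 2, COL1A1 and ALPL, were called lower at pH 6.3. Of 4 epithelial markers, which summed to 3.91 to 10.3 FPKM at pH 6.3 and to 7.4 to 14.2 FPKM at pH 7.4, all 3 that were tested were called lower. The part of these markers in the results was not tested.

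Of the 10 genes, 9 passed the filter and 7 were called, 6 of them higher and 1 lower at pH 6.3, where 59.7% of all tested genes were called, 22.4% higher and 37.3% lower. BCL6 changed most, with a mean 5.24 times as high at pH 6.3. FOXO1, FOXO3 and CITED2 were 2.33 to 2.64 times as high at pH 6.3, and FOXO4 and PIK3IP1 1.51 and 1.69 times. SESN3 was lower at pH 6.3. CCNG2 and INSR were not called over all times, and IRS2 was almost absent from both media. The median difference over the 9 tested genes was 0.60, against -0.124 over all tested genes, of which the middle 80% lay between -0.825 and 0.616.

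**Figure D1:**
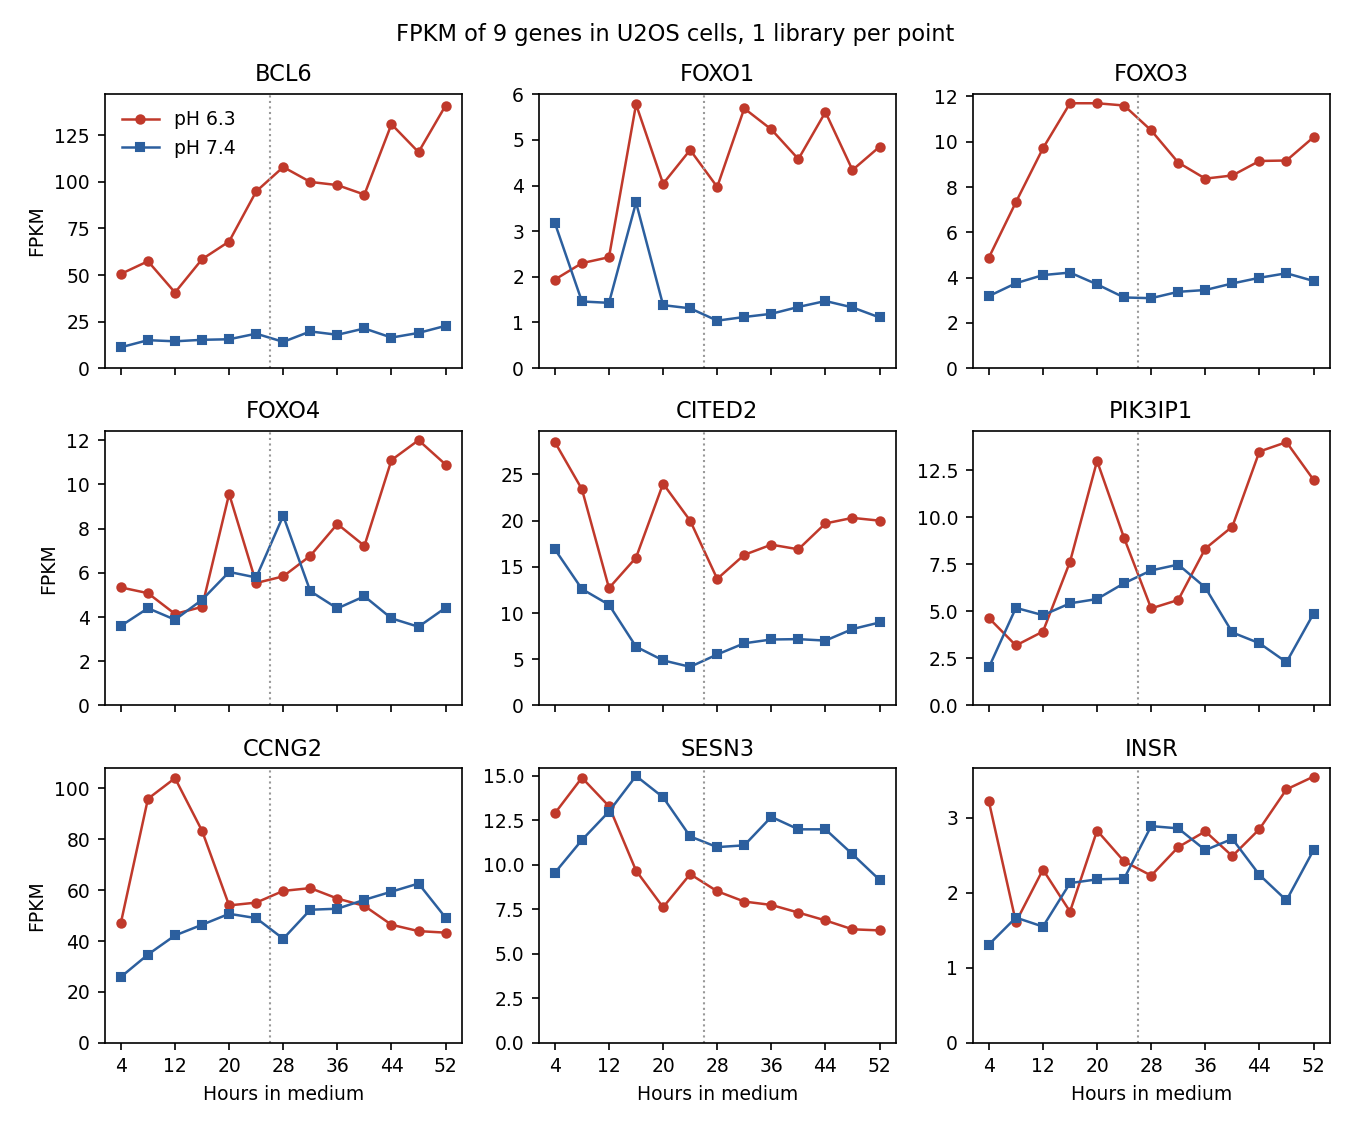
FPKM against hours in medium for 9 genes, 1 library per point, with pH 6.3 as red circles and pH 7.4 as blue squares; the dotted line separates the 2 sets of plates. BCL6 and FOXO3 were higher at pH 6.3 in every library, FOXO1 at 12 of 13 times, and CCNG2 peaked at 104 FPKM at pH 6.3, 12 h.

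Short promoter windows of these genes were searched for the letters that FOXO factors and BCL6 are known to bind, since the set holds these factors and known targets. The windows are those of RefSeq (GRCh38.p14), from 250 bases before to 50 bases after each annotated start; all 10 genes matched, with 17 windows. The forkhead motif GTAAACA, on either strand, was in 2 of the 17 windows and in 3.42% of 35116 windows of the same length. The BCL6 motif TTCCTNGAA, on either strand, was in 1 of 17 and in 1.56% of all windows. The 3 matches are shown as 30 bases of the gene's own strand, with the motif in capitals. They lie at chr22:31292454-31292483 (minus strand), chrX:71095863-71095892 (plus strand) and chr3:187745419-187745448 (minus strand).
PIK3IP1: taaagagaggcTGTTTACcagaacagcata
FOXO4: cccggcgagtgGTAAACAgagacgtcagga
BCL6: tggtgatgcaagaagtTTCTAGGAAaggcc
In PIK3IP1 the motif reads on the opposite strand and covers bases 17 to 23 counted from the annotated start, in 1 of its 2 windows. In FOXO4 it reads on the gene's strand, over bases 24 to 30. In BCL6 it reads on the opposite strand, over bases 37 to 45 of 1 of its 2 windows, so the BCL6 gene holds a match to its own protein's motif just inside the transcript. A match is a description of the letters and not of binding, which was not measured.

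FOXO3 (chr6:108559835-108684774, plus strand, GRCh38), the FOXO transcript with the highest mean at pH 6.3, ranged from 4.88 to 11.7 FPKM (median 9.17) at pH 6.3 and from 3.09 to 4.22 FPKM (median 3.74) at pH 7.4. The lowest value at pH 6.3, that of 4 h, lay above the highest at pH 7.4, so the groups did not overlap; all 13 values lay above all 13 in 1.28% of tested genes and below all 13 in 2.37%. The difference was 1.13 ± 0.10 (SE; 95% interval 0.92 to 1.34; adjusted p = 3.43e-07). FOXO3 differed least at 4 h (0.49) and most at 24 h (1.61), and then lay between 0.97 and 1.49. Level and difference were nearly the same in the 2 sets of plates: it averaged 9.49 ± 2.83 FPKM at pH 6.3 and 3.68 ± 0.457 FPKM at pH 7.4 over 4 to 24 h (SD, n = 6), and 9.29 ± 0.805 and 3.67 ± 0.383 FPKM over 28 to 52 h (SD, n = 7). FOXO3B, a gene on another chromosome with nearly the sequence of FOXO3, was not analysed here, and how the authors assigned fragments that match both is not given in the sources used here.

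FOXO1 (chr13:40469953-40666597, minus strand), the factor best known for control of glucose production in liver, ranged from 1.94 to 5.78 FPKM (median 4.58) at pH 6.3 and from 1.04 to 3.63 FPKM (median 1.34) at pH 7.4. The groups overlapped through 5 libraries: pH 6.3 at 4, 8 and 12 h had 1.94, 2.30 and 2.43 FPKM, while pH 7.4 at 4 and 16 h had 3.18 and 3.63 FPKM. The other 11 libraries at pH 7.4 lay between 1.04 and 1.47 FPKM. FOXO1 was thus lower at pH 6.3 at 4 h only, by -0.51, and higher at the other 12 times, by up to 1.66 at 32 h. Over all times the difference was 1.01 ± 0.16 (SE; 95% interval 0.67 to 1.35; adjusted p = 6.14e-05). Its size differed between the sets of plates. Over 28 to 52 h FOXO1 averaged 4.89 ± 0.649 FPKM at pH 6.3 and 1.23 ± 0.156 FPKM at pH 7.4 (SD, n = 7), a difference of 1.40 (adjusted p = 2.39e-06). Over 4 to 24 h it averaged 3.54 ± 1.56 and 2.07 ± 1.05 FPKM (SD, n = 6), a difference of 0.56 that was not called (adjusted p = 0.099).

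FOXO4 (chrX:71096197-71103535, plus strand), the shortest of the 3 factor genes, ranged from 4.14 to 12 FPKM (median 6.77) at pH 6.3 and from 3.56 to 8.58 FPKM (median 4.42) at pH 7.4. It was higher at pH 6.3 at 10 of 13 times, and the groups overlapped. The highest values at pH 6.3 were those of 44, 48 and 52 h (11.1, 12.0 and 10.9 FPKM), and the highest at pH 7.4 was that of 28 h. The difference was 0.48 ± 0.15 (SE; 95% interval 0.15 to 0.80; adjusted p = 0.014). It was 0.72 over 28 to 52 h (adjusted p = 0.0203) and 0.19 over 4 to 24 h (adjusted p = 0.421). With 56.0% GC in its longest transcript, FOXO4 is among the more GC-rich genes (median 47.6% and ninetieth percentile 60.8% over tested genes), and its maximum and minimum at pH 7.4 fell in the libraries with GC correlations of 0.75 and -0.72. At pH 6.3 its maximum and minimum fell in libraries with correlations of 0.3 and 0.16. In the pH 6.3 library of 20 h, with a correlation of 0.63, FOXO4 had 9.57 FPKM. At 16 and 24 h, with a correlation of -0.11 in each, it had 4.46 and 5.54 FPKM. After a correction for GC content, chosen after seeing the data, the difference was 0.56 (adjusted p = 2.22e-04).

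FOXO6, the remaining gene of the family, stayed at or below 1.78 FPKM at pH 6.3 and 2.21 FPKM at pH 7.4. The 4 FOXO genes summed to 22.1 ± 4.47 FPKM at pH 6.3 and 11.2 ± 1.63 FPKM at pH 7.4 (SD, n = 13), and the sum was higher at pH 6.3 at 13 of 13 times. The makeup of that sum differed too: FOXO3 gave 42.9 ± 7.56% of it at pH 6.3 and 33.3 ± 5.97% at pH 7.4, whereas FOXO4 gave 33 ± 7.46% and 43.1 ± 7.34%. FOXO1 gave 19.1 ± 4.12% at pH 6.3 and 14.3 ± 6.29% at pH 7.4. These shares overlapped between the media and are given with no test. The calls of FOXO1, FOXO3 and FOXO4 held under quantile normalization, upper-quartile scaling and the GC correction.

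**Figure D2:**
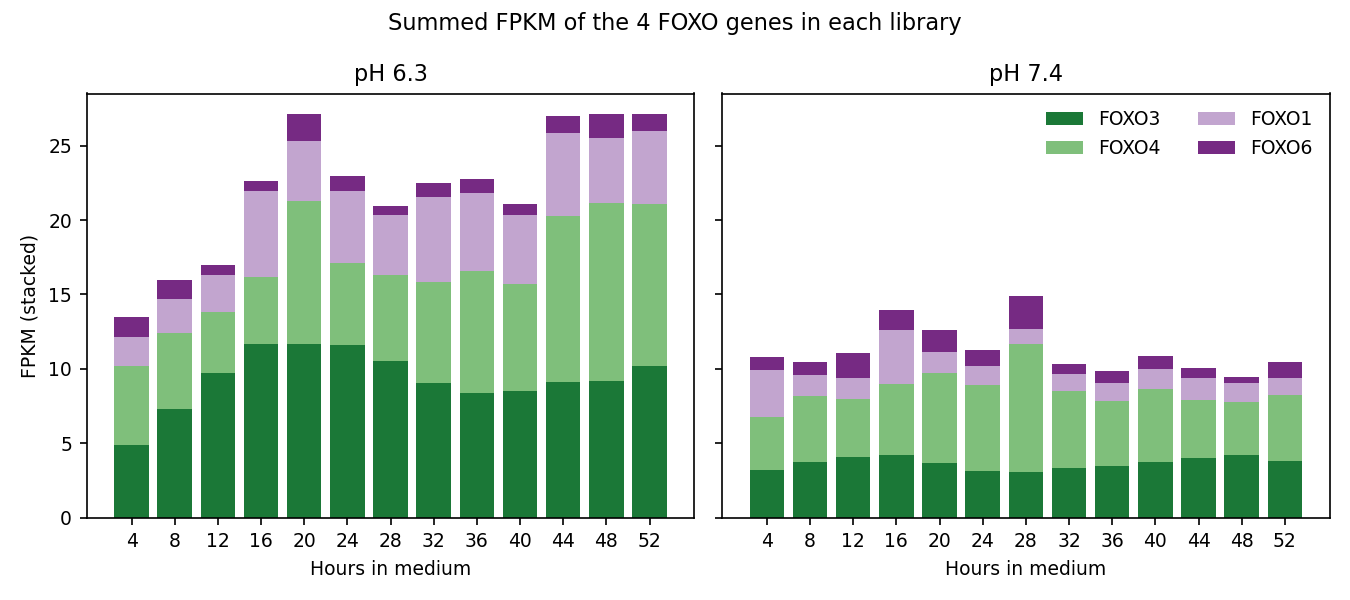
Stacked FPKM of FOXO3, FOXO4, FOXO1 and FOXO6 in each library at pH 6.3 (left) and pH 7.4 (right), against hours in medium. The sums ran from 13.5 to 27.2 FPKM at pH 6.3 and from 9.45 to 14.9 FPKM at pH 7.4.

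BCL6 (chr3:187721377-187745727, minus strand), a zinc finger repressor that recruits histone deacetylase complexes, ranged from 40.6 FPKM (12 h) to 141 FPKM (52 h) at pH 6.3, with a median of 94.9, and from 11.2 to 22.7 FPKM at pH 7.4, with a median of 16.4. The groups did not overlap, and the lowest library at pH 6.3 was well above the highest at pH 7.4. The difference was 2.25 ± 0.11 (SE; 95% interval 2.01 to 2.49; adjusted p = 2.80e-09), the eleventh highest of the tested genes (rank 11 of 11849). In the earliest libraries, of 4 h, BCL6 already had 50.6 FPKM at pH 6.3, against 11.2 FPKM at pH 7.4. The difference was smallest at 12 h (1.43) and largest at 44 h (2.92).

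Mean levels of BCL6 were higher at 28 to 52 h than at 4 to 24 h in both media. It averaged 112 ± 17.8 FPKM at pH 6.3 and 18.7 ± 2.91 FPKM at pH 7.4 over 28 to 52 h (SD, n = 7), and 61.7 ± 18.6 and 15 ± 2.35 FPKM over 4 to 24 h (SD, n = 6). The difference was called in each set of plates, at 2.52 over 28 to 52 h (adjusted p = 5.87e-07) and 1.94 over 4 to 24 h (adjusted p = 2.15e-04). In the GENCODE 29 annotation, genes on the opposite strand overlap BCL6, CITED2, IRS2, SESN3, PIK3IP1, CCNG2, FOXO1 and FOXO3. For FOXO1 and FOXO3 these are processed pseudogenes. A noncoding gene on the same strand, LINC00598, also overlaps FOXO1. The library kit keeps strand, but the strand setting of the counting is not given in the sources used here.

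CITED2 (chr6:139371807-139374620, minus strand), a transcriptional co-regulator that competes with HIF1A for the coactivators CBP and p300, ranged from 12.7 to 28.5 FPKM (median 19.7) at pH 6.3 and from 4.18 to 16.9 FPKM (median 7.14) at pH 7.4. It was higher at pH 6.3 at 13 of 13 times, as were 4.43% of tested genes, while 8.19% were lower at all 13. The maximum of each medium was at 4 h, and the ranges overlapped through the 4 h library at pH 7.4 (16.9 FPKM), which lay above the pH 6.3 libraries of 12, 16, 28, 32 and 40 h. At pH 7.4 CITED2 then declined to 4.18 FPKM at 24 h, while pH 6.3 had 24.0 FPKM at 20 h and 20.0 FPKM at 24 h, so that the differences of 20 h (2.09) and 24 h (2.02) were the largest. The mean difference was 1.18 ± 0.13 (SE; 95% interval 0.90 to 1.46; adjusted p = 2.91e-06). It was 1.18 in each set of plates as well (adjusted p = 1.60e-06 over 28 to 52 h and 0.0113 over 4 to 24 h).

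PIK3IP1 (chr22:31281593-31292534, minus strand) encodes a membrane protein that inhibits phosphoinositide 3-kinase. It ranged from 3.19 to 14 FPKM (median 8.34) at pH 6.3 and from 2.02 to 7.49 FPKM (median 5.19) at pH 7.4. It was higher at pH 6.3 at 9 of 13 times and lower at 8, 12, 28 and 32 h. The media moved in opposite ways late: at 48 h PIK3IP1 had 14.0 FPKM at pH 6.3, against 2.30 FPKM at pH 7.4, the largest difference of the course (2.19). The mean difference was 0.60 ± 0.21 (SE; 95% interval 0.15 to 1.05; adjusted p = 0.0236), and without the 44 h pair 0.50 and no longer called (adjusted p = 0.0543). It was 0.83 over 28 to 52 h (adjusted p = 0.0499) and 0.33 over 4 to 24 h (adjusted p = 0.305). Its transcript has 52.4% GC, and the pH 7.4 libraries of 44 and 48 h are those with the GC correlations of -0.67 and -0.72. With the GC correction its difference was 0.71 (adjusted p = 0.00281).

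SESN3 (chr11:95165513-95232541, minus strand), a sestrin that inhibits mTORC1 and a FOXO target, was the gene called lower. It ranged from 6.32 to 14.9 FPKM (median 7.94) at pH 6.3 and from 9.16 to 15 FPKM (median 11.6) at pH 7.4. SESN3 was higher at pH 6.3 at the first 3 times and lower at each of the 10 that followed. The mean difference was -0.37 ± 0.11 (SE; 95% interval -0.61 to -0.12; adjusted p = 0.0115). It rested on the plates of 28 to 52 h, where SESN3 averaged 7.3 ± 0.827 FPKM at pH 6.3 and 11.2 ± 1.16 FPKM at pH 7.4 (SD, n = 7; difference -0.56, adjusted p = 2.15e-04); over 4 to 24 h it was -0.14 (adjusted p = 0.61). The call depended on scaling: the difference was -0.23 with quantile normalization (adjusted p = 0.115), -0.28 with upper-quartile scaling (adjusted p = 0.0546) and -0.21 with the GC correction (adjusted p = 0.103). SESN3 has the lowest GC content of the 10 genes, at 37.1%.

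CCNG2 (chr4:77157151-77433388, plus strand), which encodes cyclin G2, a cyclin that accompanies cell cycle arrest, ranged from 43.3 to 104 FPKM (median 55.1) at pH 6.3 and from 25.9 to 62.6 FPKM (median 49.2) at pH 7.4. It had an early peak at pH 6.3, of 95.9 FPKM at 8 h, 104 FPKM at 12 h and 83.3 FPKM at 16 h, where pH 7.4 had 34.7, 42.2 and 46.4 FPKM. The pH 6.3 library of 8 h and the pH 7.4 library of 12 h are those of low depth. From 40 h on CCNG2 was lower at pH 6.3 at all 4 times. Its longest transcript has 40.8% GC. At pH 7.4 CCNG2 had 59.4 and 62.6 FPKM at 44 and 48 h, in the libraries with GC correlations of -0.67 and -0.72. It had 40.9 FPKM at 28 h, in the library with a GC correlation of 0.75. Over all times the difference was 0.34 ± 0.15 (SE; 95% interval 0.02 to 0.66; adjusted p = 0.0646) and was not called. It was called over 4 to 24 h (0.78; adjusted p = 0.017), with 73.3 ± 24.3 FPKM at pH 6.3 and 41.5 ± 9.54 FPKM at pH 7.4 (SD, n = 6). Over 28 to 52 h it was -0.03 (adjusted p = 0.821), with 52.1 ± 7.47 and 53.3 ± 7.13 FPKM (SD, n = 7). Over all times it was called under upper-quartile scaling (0.43; adjusted p = 0.0366), with the GC correction (0.49; 0.00997), with no time block (0.34; 0.0373) and without the 44 h pair (0.40; 0.0391) or the 48 h pair (0.41; 0.0275).

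INSR (chr19:7112255-7294034, minus strand), the insulin receptor, was low in both media. It ranged from 1.61 to 3.55 FPKM (median 2.61) at pH 6.3 and from 1.31 to 2.89 FPKM (median 2.19) at pH 7.4. The groups overlapped almost wholly, and INSR was higher at pH 6.3 at 8 of 13 times. The difference of 0.17 ± 0.10 (SE; 95% interval -0.05 to 0.39; adjusted p = 0.165) was not called. It was called with quantile normalization (0.39; adjusted p = 0.00105) and with the GC correction (0.30; adjusted p = 0.0103).

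IRS2 (chr13:109752698-109786568, minus strand), an adaptor between the insulin receptor and phosphoinositide 3-kinase, was listed at 0 in 9 of 13 libraries at pH 6.3 and 8 of 13 at pH 7.4. Its highest values were 0.0149 FPKM at pH 6.3 (20 h) and 0.00937 FPKM at pH 7.4 (32 h). These correspond to 2.9 and 2.0 estimated fragments, and over all libraries to 6.8 fragments at pH 6.3 and 6.9 at pH 7.4. A difference was not detectable at this depth (exact two-sided permutation test over the signs of 13 paired differences, p = 0.969), and no fold is given. Its paralog IRS1, by contrast, averaged 15.3 ± 3.1 FPKM at pH 6.3 and 6.5 ± 0.783 FPKM at pH 7.4 (SD, n = 13) and was higher at pH 6.3 at 13 of 13 times.

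**Figure D3:**
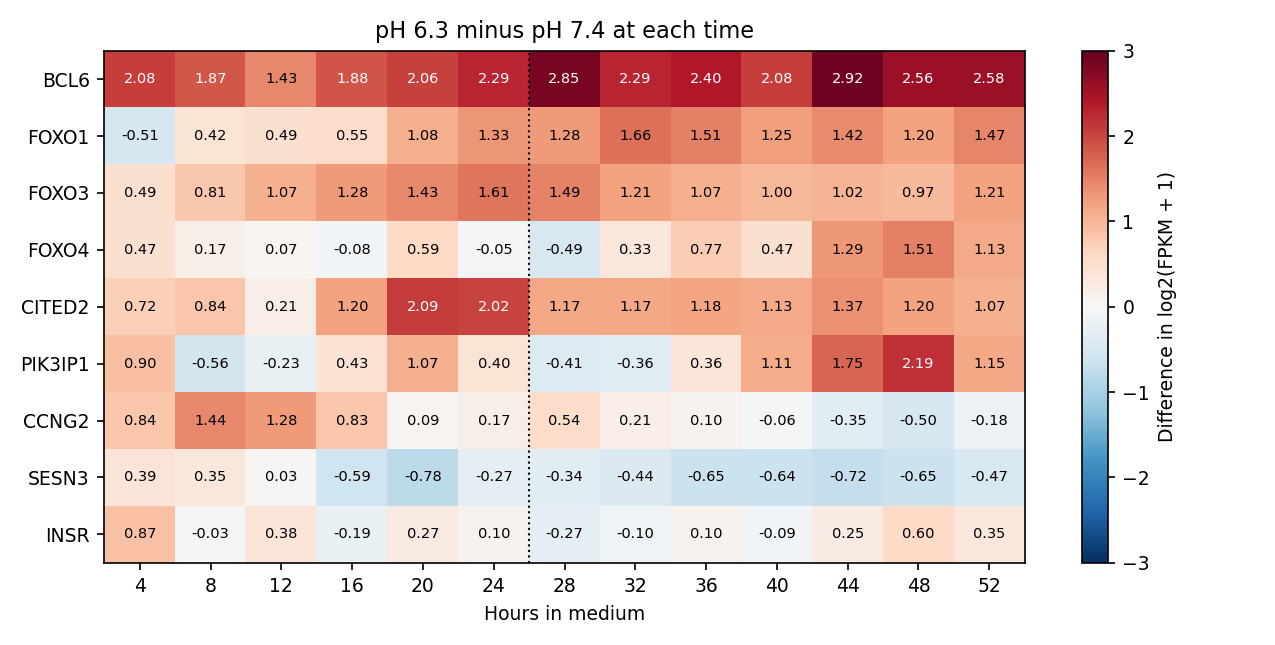
Difference in log2(FPKM + 1), pH 6.3 minus pH 7.4, for 9 genes (down) at each of 13 times (across), with the value printed in each cell; red is higher and blue lower at pH 6.3, and the dotted line separates the sets of plates. BCL6 lay between 1.43 and 2.92 throughout, CCNG2 was largest at 8 h (1.44) and SESN3 was below 0 from 16 h on.

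By level, the order at pH 6.3 was BCL6, CCNG2, CITED2, FOXO3, SESN3, PIK3IP1, FOXO4, FOXO1, INSR and IRS2. Of these neighbours, CCNG2 and CITED2, CITED2 and FOXO3, and INSR and IRS2 differed by more than the sum of their SDs, and the other 6 pairs did not. At pH 7.4 the order was CCNG2, BCL6, SESN3, CITED2, PIK3IP1, FOXO4, FOXO3, INSR, FOXO1 and IRS2. There CCNG2 and BCL6, BCL6 and SESN3, FOXO3 and INSR, and FOXO1 and IRS2 differed by more than the sum of their SDs. FOXO3 thus took rank 4 at pH 6.3 and rank 7 at pH 7.4 in mean FPKM.

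Within the plates of 4 to 24 h, 4 of the 9 genes were called, all higher at pH 6.3 (BCL6, FOXO3, CITED2 and CCNG2), where 8.57% of tested genes were called higher and 18.1% lower. Within those of 28 to 52 h, 6 were called higher (BCL6, FOXO1, FOXO3, FOXO4, CITED2 and PIK3IP1) and SESN3 lower, where 27% of tested genes were called higher and 36.4% lower. The acid effect was then compared between the sets of plates, 28 to 52 h minus 4 to 24 h, as an interaction of pH and plate set. In all, 3 of 9 genes were called, where 17.1% of tested genes were called, 10.5% with a larger and 6.56% with a smaller difference at 28 to 52 h. The change was 0.84 ± 0.25 for FOXO1 (SE; adjusted p = 0.0306), 0.59 ± 0.17 for BCL6 (SE; adjusted p = 0.0274) and -0.81 ± 0.23 for CCNG2 (SE; adjusted p = 0.027). For FOXO3 it was 0.02 (95% interval -0.40 to 0.44) and for CITED2 0.00 (95% interval -0.57 to 0.57). For FOXO4, PIK3IP1, INSR and SESN3 it was 0.52, 0.49, -0.11 and -0.42 and was not called. None of the 3 calls held when the 8, 12, 20 and 28 h pairs were left out together, with adjusted p-values of 0.0592 to 0.233. Nor did they hold without any single one of the 8, 12, 16, 44 and 52 h pairs, where the adjusted p-values were 0.0502 to 0.0699 and the estimates 0.81 to 0.84 for FOXO1, 0.49 to 0.58 for BCL6 and -0.80 to -0.68 for CCNG2. FOXO1 was also lost without the 32 or 36 h pair (0.062 and 0.0595) and CCNG2 without the 40 h pair (0.0502), and FOXO4 was called without the 28 h pair (0.72; adjusted p = 0.0403). The FOXO1 call was lost with quantile normalization (0.79; adjusted p = 0.0635) and the BCL6 call with upper-quartile scaling (0.51; adjusted p = 0.0544). Later time and plate set cannot be told apart in this design.

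**Figure D4:**
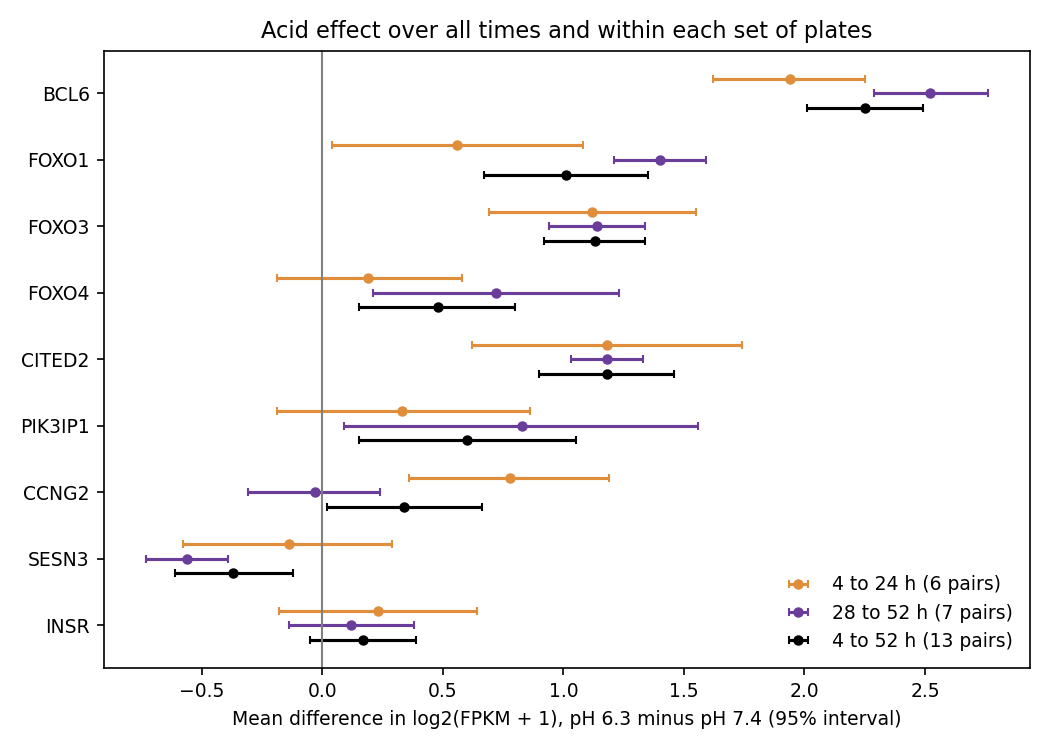
Mean difference in log2(FPKM + 1), pH 6.3 minus pH 7.4, with 95% intervals, for 9 genes over 4 to 24 h (orange, 6 pairs), 28 to 52 h (purple, 7 pairs) and all times (black, 13 pairs). For FOXO3 and CITED2 the 3 values nearly coincide; for FOXO1 and CCNG2 the 2 sets of plates lie apart.

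A linear trend over the 52 h, fitted with a 24 h rhythm for each medium, was called for 6 of 9 genes at pH 6.3 (4 upward, 2 downward), where 44.9% of tested genes were called, 25.7% upward and 19.2% downward. At pH 7.4 it was called for 2 of 9, both upward, where 14.7% were called and 8.16% upward. BCL6 rose in each medium, by 0.75 ± 0.09 per 24 h at pH 6.3 (adjusted p = 1.06e-06) and 0.35 ± 0.09 at pH 7.4 (adjusted p = 0.0115; SE in each case). At pH 6.3 FOXO1, FOXO4 and PIK3IP1 rose, by 0.42, 0.51 and 0.55 per 24 h, and SESN3 and CCNG2 fell by 0.48 and 0.32. CCNG2 went the other way at pH 7.4, where it rose by 0.39 per 24 h (adjusted p = 0.00815). With the GC correction that rise was 0.31 (adjusted p = 0.0476). The trend differed between the media, pH 6.3 minus pH 7.4, for 5 of 9 genes (27.9% of tested genes, 15.8% with a positive and 12.1% with a negative difference): FOXO1 (0.78), FOXO4 (0.55), BCL6 (0.40), SESN3 (-0.39) and CCNG2 (-0.71). With the plate set as a term, which reads the trend within each set of plates, no gene of the 9 was called and the BCL6 trend difference was -0.22 (adjusted p = 0.819). With the time point as a replicate block the FOXO4 trend difference was no longer called (adjusted p = 0.0899). The FOXO4 trend difference was also lost without any single one of 8 of the 13 pairs (0.46 to 0.56) or with no filter on low values (0.55; adjusted p = 0.0591), that of BCL6 without the 20, 36 or 44 h pair (0.39, 0.35 and 0.35) or with upper-quartile scaling (0.34; adjusted p = 0.0527), and that of FOXO1 without the 4 h pair (0.53; adjusted p = 0.0801). Single trends were lost for FOXO1 at pH 6.3 without the 4 or 8 h pair (0.34 and 0.39) or with quantile normalization (0.38; adjusted p = 0.0546), for PIK3IP1 at pH 6.3 without the 52 h pair (0.46), and for BCL6 at pH 7.4 without the 4 or 52 h pair (0.29 and 0.31). Without the 4 h pair the CCNG2 trend at pH 6.3 was -0.51, that of INSR was called (0.31; adjusted p = 0.0217) and the PIK3IP1 trend difference was called (0.86; adjusted p = 0.00855).

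The study's title names the circadian clock, so a 24 h rhythm was also tested in each medium. None of the 9 genes was called by limma, at pH 6.3, at pH 7.4 or for the difference between media. At an unadjusted p below 0.05 there were 2, 1 and 2 of them, PIK3IP1 and CCNG2 at pH 6.3, SESN3 at pH 7.4, and PIK3IP1 and SESN3 for the difference. Among all tested genes 0 were called at pH 6.3, 5 at pH 7.4 (0.0422%) and 2 for the difference (0.0169%), with 1083, 443 and 1098 at an unadjusted p below 0.05. PIK3IP1 had the largest fitted amplitude at pH 6.3, of 0.54 around a peak at 20.5 h (unadjusted p = 0.0081, adjusted p = 0.542). In the pH 6.3 library of 20 h, with a GC correlation of 0.63, it had 13 FPKM. With the GC correction the amplitude was 0.48 (adjusted p = 0.445).

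For each of the 3 FOXO factors and BCL6, the 5 nearest genes were found among 9310 genes whose higher group averaged 5 FPKM or more. Nearness was the mean absolute distance between the 13 differences, which reflects their size as well as their course over time. That the nearest genes lie below the median distance follows from how they were picked. Nearest to BCL6 were NR4A2 (0.35), DUSP1 (0.42), ATF3 (0.43), ARF4 (0.43) and ZNF550 (0.45), where the median distance of all genes was 2.38. DUSP1, a phosphatase of MAP kinases, averaged 153 FPKM at pH 6.3, against 30.8 FPKM at pH 7.4. ATF3, a stress-induced transcription factor, averaged 30.6 FPKM at pH 6.3, against 5.41 FPKM at pH 7.4. Nearest to FOXO3 were TOMM20 and FOXC1 (0.14), RAB33B and PLAG1 (0.15) and CDK19 (0.19), against a median of 1.27. Nearest to FOXO1 were C1orf52 (0.15), TBC1D23 (0.17), and UHRF1BP1, YKT6 and MARS (0.19), against a median of 1.23. Nearest to FOXO4 were RPS26 (0.16), CSRNP1 (0.17), ELMSAN1 (0.18), and GGCX and TRMT112 (0.20), against a median of 0.78. Among the 9 genes themselves the closest pair was FOXO3 and CITED2, at a distance of 0.27. All these distances share the same 26 libraries.

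Genes around the FOXO factors were counted in 4 lists, which were chosen with earlier results of these data known. The shares are a description, with no set test. Of 40 tested genes in a list of other FOXO targets, 26 rose and 6 fell at pH 6.3 (65% and 15%, beside 22.4% and 37.3% of all tested genes), with a median difference of 0.48. TXNIP, whose product binds thioredoxin and lowers glucose uptake, averaged 200 ± 73.6 FPKM at pH 6.3 and 4.08 ± 1.83 FPKM at pH 7.4 (SD, n = 13). PDK4, a kinase that inhibits pyruvate dehydrogenase, averaged 22 ± 13.4 and 2.11 ± 0.914 FPKM, and CDKN1A, the cell cycle inhibitor p21, 168 ± 49.7 and 44.7 ± 9.58 FPKM. Of the 6 that fell, CCND1 (cyclin D1, a gene that FOXO factors are known to repress) was at -0.92, PINK1, a kinase of mitochondrial quality control, at -0.82, and CAT, the catalase gene, at -0.80. The cyclin D2 gene CCND2, in the same list, went the other way, at 0.97 (adjusted p = 5.21e-05). The list mixes genes that FOXO factors raise with genes that they repress, so its counts do not measure FOXO activity. CAT and CCND1 were not called over 4 to 24 h alone (-0.29 and -0.25; adjusted p = 0.142 and 0.269). The counts were 17 and 2 over 4 to 24 h, where 8.57% of all tested genes were called higher and 18.1% lower, and 27 and 7 over 28 to 52 h, where 27% and 36.4% were.

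Of 37 tested genes of insulin and AKT signalling, which run from the IGF1 receptor and receptor substrates through AKT to kinases and substrates downstream of it, 11 rose and 6 fell at pH 6.3 (29.7% and 16.2%, beside 22.4% and 37.3% of all tested genes), with a median of 0.02. The counts were 6 and 2 over 4 to 24 h, where 8.57% of all tested genes were called higher and 18.1% lower. Over 28 to 52 h they were 14 and 8, where 27% and 36.4% of all tested genes were. Beside the almost absent IRS2 and the uncalled INSR, IRS1 rose by 1.11 ± 0.10 (SE; adjusted p = 2.91e-07), whereas IGF1R, the receptor for IGF1, was lower at pH 6.3 at 13 of 13 times, with 13.9 ± 7.03 FPKM at pH 6.3 and 32.8 ± 9.07 FPKM at pH 7.4 (SD, n = 13; -1.25 ± 0.14, SE). PPP2R5B, a subunit of the phosphatase PP2A, and GSK3A, a kinase that AKT inhibits, rose by 1.08 and 0.86. The phosphoinositide 3-kinase subunits PIK3CD and PIK3R1 fell by 0.96 and 0.69. PPP2R5B, GSK3A and PIK3R1 were not called over 4 to 24 h alone (0.19, 0.57 and -0.04).

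Of 41 tested regulators of FOXO proteins, 11 rose and 12 fell (26.8% and 29.3%, beside 22.4% and 37.3% of all tested genes). Their median was -0.04. With the GC correction 18 rose and 10 fell, and with upper-quartile scaling 17 and 9. The calls over all tested genes moved too, from 2653 higher and 4421 lower in the main fit. They were 3739 and 3840 with the GC correction, and 3196 and 3740 with upper-quartile scaling. The largest increases were SMAD3 (1.05), a partner of FOXO factors in TGF-beta signalling, HDAC5 (1.03), a class IIa deacetylase, and STK3 (0.68), the kinase MST2. The largest decreases were PRMT6 (-2.06), an arginine methyltransferase with 2.09 ± 1.79 FPKM at pH 6.3, against 10.8 ± 0.85 FPKM at pH 7.4 (SD, n = 13), KAT2B (-0.89), the acetyltransferase PCAF, and SFN (-0.87), a 14-3-3 protein. Over 4 to 24 h alone HDAC5 (0.72; adjusted p = 0.0705), KAT2B (-0.66; adjusted p = 0.0564) and SFN (-0.40; adjusted p = 0.226) were not called. The last list mixed corepressors, partners and regulators of BCL6. Of its 20 tested genes, 2 rose (HDAC7, 0.51, and STAT3, 0.46) and 4 fell (among them CXXC5, -1.53, MTA3, -0.77, and HDAC3, -0.47). This is 10% and 20% beside 22.4% and 37.3% of all tested genes, with a median of 0.02. Quantile normalization gave 6 and 4, where 3323 of all tested genes were called higher and 3637 lower. HDAC7 was not called over 4 to 24 h alone (0.42; adjusted p = 0.0902) or without the 8, 12, 20, 28, 44 and 48 h pairs (0.30; adjusted p = 0.0554).

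**Figure D5:**
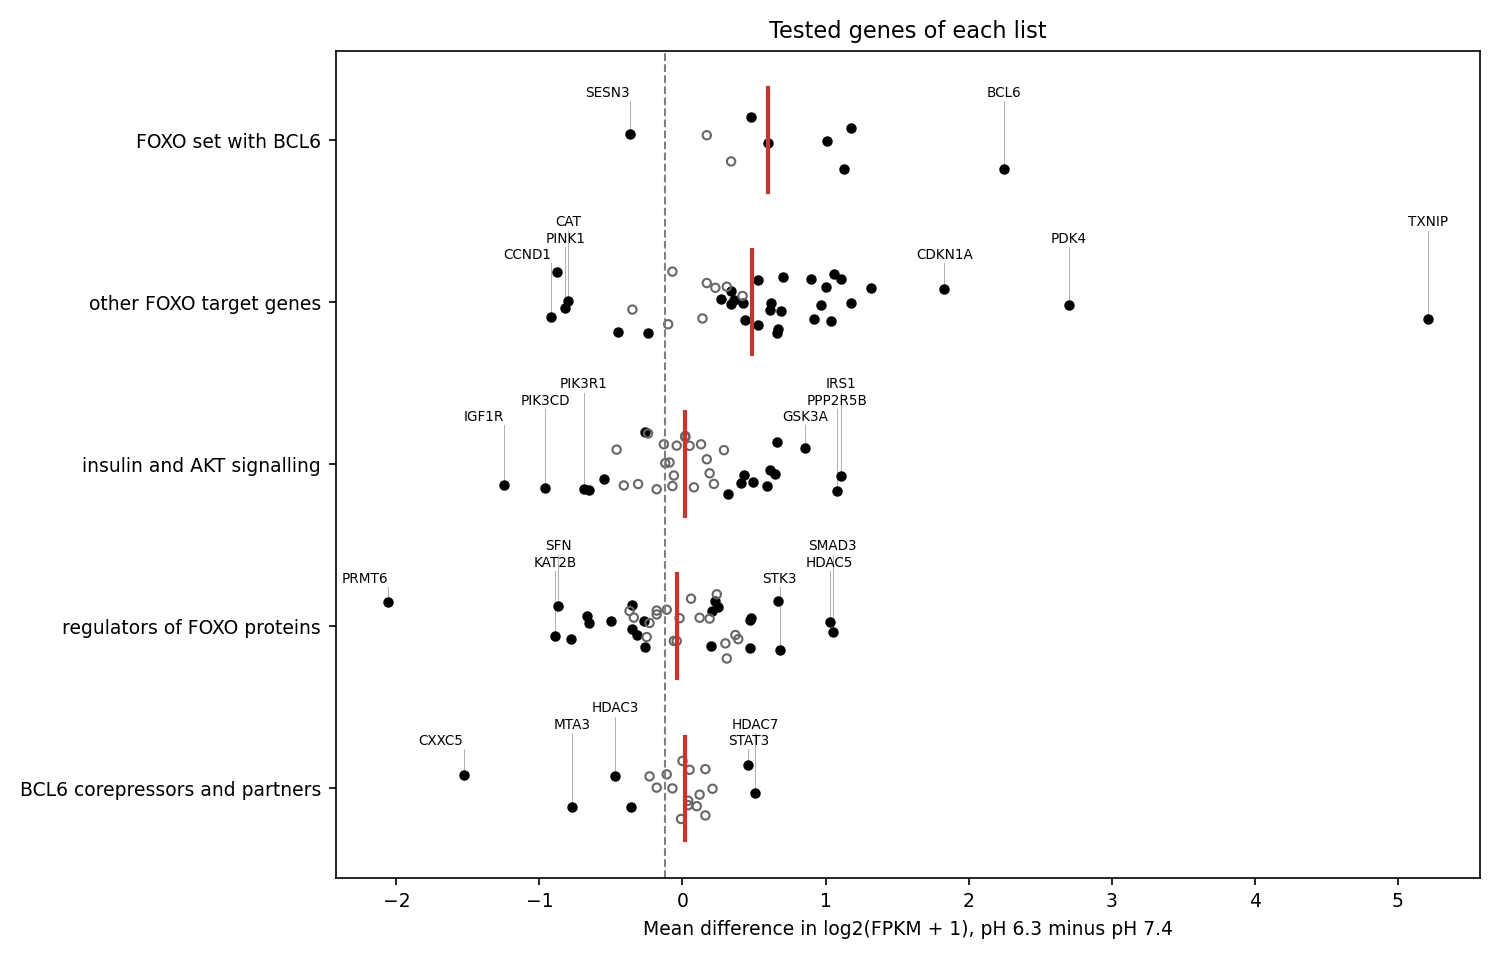
Mean difference in log2(FPKM + 1), pH 6.3 minus pH 7.4, of each tested gene in 5 lists; filled points were called, open points were not, red bars mark the list's median and the dashed line the median of all tested genes (-0.124). The medians were 0.60 for the FOXO set with BCL6, 0.48 for other FOXO targets, and between -0.04 and 0.02 for the other lists.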

How the data were processed

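Per the submitters' processing notes, the authors used STAR and Cufflinks on the hg38 genome. They deposited FPKM for 26 libraries in 1 table. Versions, annotation release and strand setting were not given in the sources used here. It has 19806 rows for 19704 symbols (101 symbols on more than 1 row). FPKM are not counts, so no count test was run. The spacing of low values in 1831 genes with a single transcript gave an estimate of depth; 87.0 to 94.0% of those values fell within 0.1 of a whole fragment.

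The 11849 rows averaging 1 FPKM or more were fitted as log2(FPKM + 1) in limma 3.58.1 (R 4.3.3; moderated variances with a mean trend), and p-values were adjusted over all of them by Benjamini-Hochberg at 0.05. For the acid effect, differences between media were averaged over the 13 times, with time as a block. The pairing comes from the labels' protocols: dishes in acid and neutral medium were collected together at each time. As a check, the deviations from the group means of the 2 libraries of a time correlated across genes between -0.51 and 0.42 (median 0.03), above 0.1 in 4 of 13 pairs. Plate set difference, linear trend and 24 h rhythm were terms of further fits. Only some of the fits were tested on simulated data with known changes, and no recovery rate is given here. IRS2, below the filter, was tested alone.

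The genes, lists and tests were chosen with earlier results of these data known. From each list the text names up to 3 called increases and 3 called decreases, the largest whose higher group averaged 5 FPKM or more. CCND2 was added beside CCND1. The alternatives were quantile normalization, upper-quartile scaling, a pseudocount of 0.1, no filter and a minimum of 5 FPKM, pairs left out, and fits with and without the block or plate set. The GC correction subtracted a spline (4 df) of transcript GC content from each library's deviations. It was chosen after seeing the data, as were the pairs left out of the trend and rhythm fits. Gene coordinates are those of GENCODE 29 on GRCh38; motif matches have RefSeq coordinates.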

Additional observations from a re-analysis of the deposited data

Results flagged for a closer look

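Of the 9 tested genes, 3 had an acid effect that differed between the sets of plates by the interaction of pH and plate set (limma, adjusted p below 0.05), which was called for 17.1% of all tested genes. For FOXO1 the difference between pH 6.3 and pH 7.4 was larger by 0.84 over 28 to 52 h than over 4 to 24 h (adjusted p = 0.0306). It was higher at pH 6.3 at 7 of 7 later times and 5 of 6 earlier ones. For BCL6 it was larger by 0.59 (adjusted p = 0.0274), and BCL6 was higher at pH 6.3 at all 13 times. For CCNG2 the change was -0.81 (adjusted p = 0.027), with higher levels at pH 6.3 at 6 of 6 earlier times and 3 of 7 later ones. These 3 calls were lost without the 8, 12, 20 and 28 h pairs, at 0.96, 0.39 and -0.74 for FOXO1, BCL6 and CCNG2. Time and plate set cannot be told apart.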

How the results depend on the processing

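The acid effect was called for 7074 genes, for 7183 with no replicate block and for 6613 to 7381 without 1 pair, with 7 to 8 of the 9 genes described; over 4 to 24 h alone it was called for 3159 genes and 4 of the 9. The plate set difference (2026 genes, 3 of the 9) was called for 2719 genes with no replicate block, for 699 and 0 of the 9 without the 8, 12, 20 and 28 h pairs, for 2 and 0 without the 44 and 48 h pairs too, and for 1292 to 2653 and 0 to 4 without 1 pair. With the plate set as a term, trends were called for 155 genes at pH 6.3, 0 at pH 7.4 and 7 for the difference, and for 0 of the 9 each time; the BCL6 trend difference was -0.22. Trends without that term were called for 5326, 1743 and 3300 genes (6, 2 and 5 of the 9), and without the 6 pairs for 3101, 157 and 949 genes (3, 0 and 0 of the 9). Without 1 pair, trends held for 5 to 6 of the 9 at pH 6.3, 1 to 2 at pH 7.4 and 3 to 5 for the difference. The rhythm at pH 7.4 was called for 0 genes without the 4 or 6 pairs and for 2 to 5 without 1; the rhythm difference for 1 gene with the GC correction, 1 with no filter, 0 with the replicate block, 0 and 0 without the 4 or 6 pairs and 1 to 6 without 1. The median of all genes moved to -0.02 with quantile normalization, and calls of higher level at pH 6.3 made up 37.5% of all calls, 47.7% with quantile normalization, 46.1% with upper-quartile scaling and 49.3% with the GC correction. The cause of these changes was not tested, beyond the fewer pairs in each smaller fit. Of all values recomputed under alternatives, 1474 stayed on the same side of the threshold, 80 lost a call and 13 gained 1. Another 1, called in at least 1 of its fits, reversed direction. Uncalled values that changed sign are counted among the 1474, and rhythm amplitudes have no direction. The 1474 also hold the rhythm values of the 9 genes, which were called in no fit, so they are not a count of calls that held. At this depth no difference in IRS2 was detectable.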
